A study of Mus musculus with 6 samples.

Results

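The genes described here are 10 enzymes that build, epimerise and sulfate chondroitin sulfate (CS) and dermatan sulfate (DS). They are Csgalnact1, Csgalnact2, Chsy1, Chpf, Chpf2, Chst11, Chst12, Chst15, Dse and Ust, which were picked by name as 10 of the 43280 rows of the deposited count table. RNA came from the submandibular gland (SMG), a salivary gland, of female mice. Of the 6 libraries, 3 were labelled wild type (WT) and 3 were labelled DKO, and each group holds libraries numbered 1, 4 and 5. The study describes the DKO animals as carrying a frameshift deletion in exon 1 of Hs3st3a1 together with a LacZ cassette in Hs3st3b1, and the glands as adult. It made more than 1 mutant line, and the sources used here do not say which line gave these libraries or whether each library is 1 animal, so p-values measure only the spread between these libraries. The question addressed is whether genes of a sister glycosaminoglycan differ between glands labelled WT and glands labelled DKO.

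Chondroitin, dermatan and heparan sulfate (HS) chains all start on the same linker sugar, which is attached to serine residues of a core protein. The first hexosamine added next decides the chain. N-acetylgalactosamine, added by Csgalnact1 or Csgalnact2, starts CS, whereas N-acetylglucosamine, added by Extl3, starts HS. Chsy1, working with Chpf or Chpf2, then extends the CS chain with alternating glucuronic acid and N-acetylgalactosamine, and sulfotransferases modify it. Dse converts glucuronic acid to iduronic acid, which turns CS into DS. Hs3st3a1 and Hs3st3b1, the targeted genes, are HS 3-O-sulfotransferases that act on HS.

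The 5′ sequences of Chsy1, Chpf and Chpf2 are shown because these subunits of the polymerising complexes had fold changes of opposite sign described further on. Each is the 250 bases before the transcription start in RefSeq, build GRCm38.p6, written 5′ to 3′ on the strand of the gene. Capitals mark TGACGT on either strand, the core of the cyclic AMP response element.
Chsy1, chr7:66109242-66109491, plus strand: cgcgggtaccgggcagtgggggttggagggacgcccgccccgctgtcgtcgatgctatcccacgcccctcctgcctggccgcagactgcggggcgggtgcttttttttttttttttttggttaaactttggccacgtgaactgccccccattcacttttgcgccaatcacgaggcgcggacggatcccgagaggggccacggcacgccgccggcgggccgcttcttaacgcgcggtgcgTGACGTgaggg
Chpf, chr1:75479472-75479721, minus strand: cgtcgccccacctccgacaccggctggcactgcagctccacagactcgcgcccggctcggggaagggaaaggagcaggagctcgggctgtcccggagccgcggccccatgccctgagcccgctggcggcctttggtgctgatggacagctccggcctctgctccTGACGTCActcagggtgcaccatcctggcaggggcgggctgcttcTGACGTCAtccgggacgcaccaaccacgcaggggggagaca
Chpf2, chr5:24586494-24586743, plus strand: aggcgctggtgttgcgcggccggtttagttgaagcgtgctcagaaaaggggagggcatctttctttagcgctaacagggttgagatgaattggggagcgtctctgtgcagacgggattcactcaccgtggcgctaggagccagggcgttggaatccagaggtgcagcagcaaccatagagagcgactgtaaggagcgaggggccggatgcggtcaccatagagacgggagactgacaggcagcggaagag
The Chpf window holds the full palindrome TGACGTCA at 2 places, while the Chsy1 window holds the core alone and the Chpf2 window shown holds neither. RefSeq gave 2 windows for Chpf2, and only the first listed was used. Of 27025 windows of this length, 1 for each gene, 6.56% hold TGACGT and 1.62% hold TGACGTCA, and 10 hold TGACGTCA at 2 or more places. Among the 9 enzymes with a window in the RefSeq table, Chsy1, Chpf and Dse held TGACGT. The windows and the motif were chosen after the values and sequences were seen, and a match in letters is not a binding site.

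Total counts ranged from 23674258 to 29611975 per library, of which the 10 enzymes together took 79.0 to 107 CPM, which are counts scaled to a common library total. The targeted genes did not separate the groups. The counts of Hs3st3b1 were 173, 203 and 261 for WT 1, 4 and 5, compared with 255, 120 and 189 for DKO 1, 4 and 5, and those of Hs3st3a1 were 15, 11 and 15 compared with 11, 8 and 13. Counts per gene do not show a frameshift or a cassette, so every direction given here rests on the labels. Salivary markers were present, with 7 acinar markers summing to at least 415440 normalized counts in each library. Of 6 genes listed as markers of the adjacent sublingual gland, Muc19, Dcpp1, Dcpp2 and Dcpp3 were highest in WT 5 and next in DKO 1. Muc19 had 55665 and 3706 normalized counts there, against at most 119 in the other 4 libraries. The summed list is mostly Smgc. It was 292446, 24705 and 276286 in WT 1, 4 and 5, and 42926, 117762 and 18512 in DKO 1, 4 and 5. By the sum WT 1 and WT 5 stood apart, but WT 1 was among the 4 libraries with at most 119 normalized counts of Muc19. Whether the sum reflects sublingual tissue was not tested. With WT 5 left out, the log2 fold changes of the 10 enzymes ran from -0.52 for Chsy1 to 0.36 for Chpf. Because whole glands were used, fewer cells of a type and less RNA per cell cannot be told apart.

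None of the 10 enzymes differed between the groups at a DESeq2 Benjamini-Hochberg adjusted p under 0.05. The edgeR and limma-voom tests also called 0 of 10, as did every other alternative, the fit without WT 5 included. For comparison, DESeq2 called 2.90% of the 18606 rows tested, with 1.02% higher and 1.88% lower in DKO, and 3.77% of rows with a mean of at least 50 normalized counts. Over all rows, edgeR called 0.0537% and limma-voom 0.0376%, while DESeq2 called 7.90% with total counts as size factors and 1.84% with the replicate block. At an unadjusted p under 0.05 there were 4 of 10, namely Chpf and Chpf2 with positive and Chsy1 and Dse with negative log2 fold changes. That unadjusted threshold was passed by 12.2% of all rows, and by 15.3% of the rows with such a mean. The median log2 fold change of the 10 was -0.13, against 0.00 over all rows. Their summed normalized counts were 2502, 2269 and 2424 in WT and 2537, 2476 and 2354 in DKO, so the sums overlapped.

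**Figure D1:**
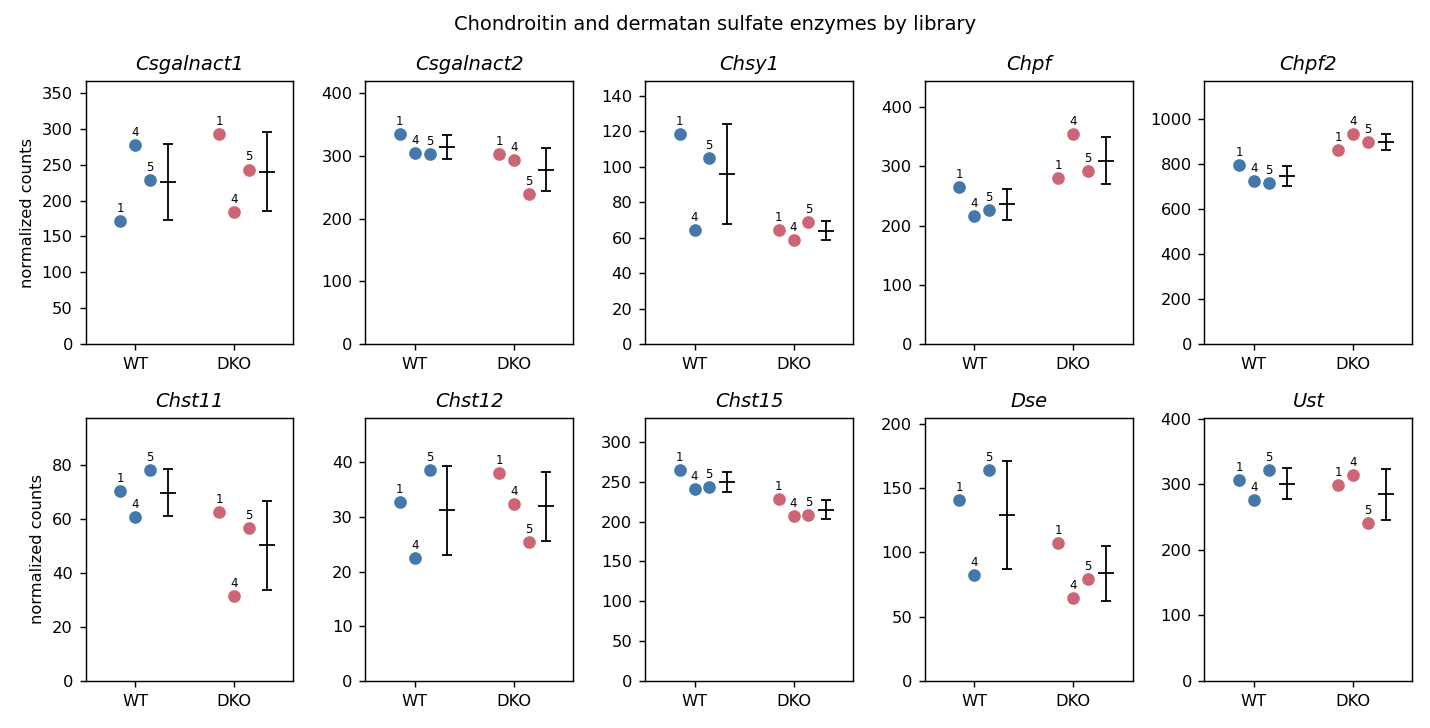
Normalized counts (vertical axes, each from 0) of the 10 enzymes in each library, with WT in blue, DKO in red, the library number above each point, and the mean with SD (n = 3) in black. Chpf and Chpf2 are higher and Csgalnact2 and Chst15 lower in every DKO library than in every WT library, and the other 6 overlap.

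Coordinates are those of GENCODE M21 on GRCm38. Csgalnact1 (chromosome 8, 68356781 to 68735146, minus strand) adds the first N-acetylgalactosamine to the linker and thereby starts a CS chain. It was at 171, 277 and 229 normalized counts in WT 1, 4 and 5, against 293, 184 and 243 in DKO 1, 4 and 5. The spread within each group was wider than the difference between them, and its log2 fold change was 0.09 with an SE of 0.23 (DESeq2, adjusted p = 0.938). Csgalnact2 (chromosome 6, 118107452 to 118139140, minus strand) is the second enzyme with this activity. It was at 335, 304 and 303 normalized counts in WT, against 303, 294 and 239 in DKO. The lowest WT and the highest DKO library were almost equal, and the log2 fold change was -0.17 with an SE of 0.16 (DESeq2, adjusted p = 0.746). DKO 5 was its lowest library, and without it the log2 fold change was -0.073. Thus neither enzyme of chain initiation passed the test.

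The polymerising subunits gave the smallest p-values together with Dse. Chsy1 (chromosome 7, 66109515 to 66173798, plus strand) carries the glucuronic acid and N-acetylgalactosamine transferase activities of chain elongation. It was at 119, 64.6 and 105 normalized counts in WT, against 64.5, 58.5 and 69.2 in DKO. WT 1 and WT 5 lay above all DKO libraries while WT 4 lay among them, and the log2 fold change was -0.59 with an SE of 0.29 (DESeq2, unadjusted p = 0.0443 and adjusted p = 0.344). Without WT 4 the log2 fold change was -0.80 with a DESeq2 adjusted p = 0.0672, and without WT 5 it was -0.52 with a DESeq2 adjusted p = 0.843. It was weakest without WT 1, at -0.41 with a DESeq2 adjusted p = 0.859.

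Chpf (chromosome 1, 75474569 to 75479307, minus strand), the chondroitin polymerising factor, is needed with Chsy1 for long chains. It was at 265, 216 and 227 normalized counts in WT, against 281, 355 and 293 in DKO. Every DKO library lay above every WT library, and the log2 fold change was 0.39 with an SE of 0.17 (DESeq2, unadjusted p = 0.0194 and adjusted p = 0.220). Chpf2 is a related subunit with glucuronic acid transferase activity, and had the smallest unadjusted p of the 10. It was at 797, 726 and 715 normalized counts in WT, against 861, 934 and 899 in DKO. Again the groups did not overlap, and the log2 fold change was 0.27 with an SE of 0.11 (DESeq2, unadjusted p = 0.0138 and adjusted p = 0.178). Without WT 5 the log2 fold change of Chpf was 0.36 and that of Chpf2 was 0.24. Without DKO 4 these were 0.28 and 0.24. With total counts in place of median-of-ratios size factors, the median of all rows moved to -0.23, and the values were 0.15 for Chpf and 0.03 for Chpf2, or 0.38 and 0.26 above that median. Chpf2 (chromosome 5, 24586741 to 24594556, plus strand) shares exonic sequence with Smarcd3 on the opposite strand. Since the libraries were unstranded, reads there cannot be assigned to either gene, but Smarcd3 had 305 counts in all against 4926 for Chpf2. Exons of Chsy1 and Chst15 also overlap antisense genes, of which Gm26827 over Chsy1 had 0 counts and Gm10584 over Chst15 was not analysed here.

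A ratio within each library does not depend on the size factors. Chpf and Chpf2 together had 7.43, 12.0 and 7.44 times the counts per kb of Chsy1 in WT 1, 4 and 5, and 14.7, 18.5 and 14.3 times in DKO 1, 4 and 5. The DKO ratios were all above the WT ratios, by 0.85 on the log2 scale between means, and by 0.73 to 1.08 when any 1 library was left out. This ratio was chosen after the values of its genes were seen and therefore has no test.

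Chst11 (chromosome 10, 82985498 to 83195900, plus strand) and Chst12 (chromosome 5, 140505550 to 140525724, plus strand) transfer sulfate to the 4-O position of N-acetylgalactosamine. Chst11 was at 70.3, 60.6 and 77.9 normalized counts in WT, against 62.6, 31.4 and 56.5 in DKO. Its groups overlapped only through WT 4 and DKO 1, and the log2 fold change was -0.47 with an SE of 0.33 (DESeq2, adjusted p = 0.602). DKO 4 was its lowest library, and without it the log2 fold change was -0.22. Chst12 was the least counted of the 10, with 32.7, 22.5 and 38.5 normalized counts in WT and 38.0, 32.4 and 25.4 in DKO. Its log2 fold change was 0.03 with an SE of 0.40 (DESeq2, adjusted p = 0.989), with a 95% interval from -0.76 to 0.82. The upper end of that interval is a rise of 1.77-fold, and with WT 5 left out it was 1.15 on the log2 scale.

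Chst15 (chromosome 7, 132235780 to 132317228, minus strand) adds a 6-O sulfate to residues that already carry the 4-O sulfate. It was at 264, 241 and 244 normalized counts in WT, against 229, 207 and 209 in DKO. No DKO library reached a WT library, and the log2 fold change was -0.21 with an SE of 0.16 (DESeq2, adjusted p = 0.637). Dse (chromosome 10, 34151393 to 34207715, minus strand), the epimerase that forms DS, was at 141, 82.2 and 164 normalized counts in WT, against 107, 64.8 and 79.6 in DKO. As for Chsy1, WT 4 lay within the DKO range, and the log2 fold change was -0.62 with an SE of 0.30 (DESeq2, unadjusted p = 0.0396 and adjusted p = 0.322). Leaving out WT 4 gave -0.86 with a DESeq2 adjusted p = 0.0605, and leaving out WT 5 gave -0.41 with a DESeq2 adjusted p = 0.941.

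Ust (chromosome 10, 8204756 to 8518825, minus strand) sulfates the 2-O position of the uronic acid. It was at 307, 276 and 322 normalized counts in WT, against 299, 315 and 241 in DKO. The groups overlapped, and the log2 fold change was -0.08 with an SE of 0.16 (DESeq2, adjusted p = 0.920). Leaving out any 1 library gave values from -0.16 to 0.026.

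In normalized counts, groups without overlap were counted for 4 of the 10 enzymes, 2 higher and 2 lower in DKO. Over all rows tested, groups did not overlap in 20.3%, with 9.85% higher and 10.5% lower. No enzyme had a 95% interval that reached a doubling. The largest upper limits were 1.77-fold for Chst12, 1.65-fold for Chpf, 1.45-fold for Csgalnact1 and 1.40-fold for Chpf2. At the other end, the interval of Dse reached down to 0.433-fold, that of Chsy1 to 0.449-fold and that of Chst11 to 0.463-fold. The intervals of Chsy1, Chpf, Chpf2 and Dse did not include equality, but they are not adjusted for the number of rows tested.

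**Figure D2:**
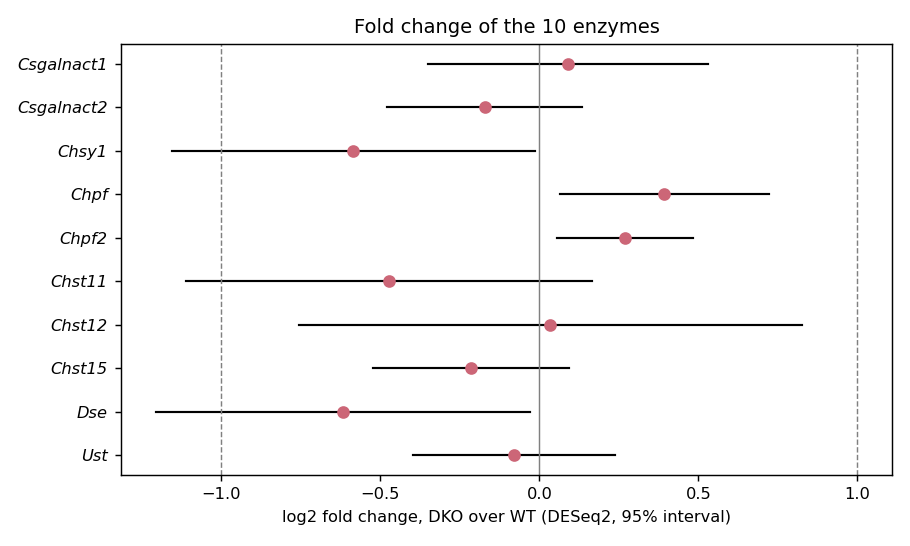
DESeq2 log2 fold change of DKO over WT (horizontal axis; point) with its unadjusted 95% interval (line) for each enzyme, and dashed lines at a doubling and a halving. The highest upper limit is 0.82 for Chst12, and the points run from -0.62 for Dse to 0.39 for Chpf.

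Chsy1, Chpf, Chst11, Chst12, Chst15, Dse and Ust had their lowest WT value in WT 4, while Csgalnact1, Csgalnact2 and Chpf2 did not. The summed markers of macrophages, T cells, B and plasma cells, mast cells and fibroblasts were lowest in the same WT library. The 7 macrophage markers summed to 2718, 1671 and 2730 normalized counts in WT and 1617, 1387 and 1154 in DKO, and 4 of the 7 were lower by DESeq2. The 7 T cell markers summed to 1764, 675 and 1147 in WT and 564, 379 and 303 in DKO, with 4 of 7 lower. The 7 B and plasma cell markers summed to 3956, 954 and 2914 in WT and 1105, 715 and 256 in DKO, with 2 of 7 lower, and the mast cell markers to 967, 796 and 839 against 497, 576 and 585, with 1 of 5 tested lower. Blood markers went the other way, with 4 of 5 higher in DKO. The 8 fibroblast markers summed to 8823, 7321 and 11661 in WT and 8469, 5600 and 7001 in DKO, with 2 of 8 lower. Within the epithelium, 6 of 7 tested myoepithelial and 6 of 7 granular duct markers were lower and 3 of 7 acinar markers were higher. Their part in the values of the 10 enzymes was not tested.

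To compare levels between genes, counts were expressed as RPKM, which divides counts by exon length in kb and by the library total. Chpf2 was highest in WT, at 5.41 ± 0.603 RPKM (SD, n = 3), and did not overlap the next gene. Ust followed at 2.64 ± 0.332, Chpf at 2.49 ± 0.412 and Csgalnact2 at 2.34 ± 0.263, and each overlapped its neighbour. Csgalnact1 at 1.78 ± 0.317 and Chst15 at 1.50 ± 0.161 overlapped each other but lay under Csgalnact2. Below them, Dse at 1.06 ± 0.381, Chsy1 at 0.942 ± 0.322, Chst12 at 0.539 ± 0.159 and Chst11 at 0.512 ± 0.0845 again overlapped from neighbour to neighbour. Chpf2 was therefore more abundant per length than Chsy1, the subunit it works with, in each of the 6 libraries. In DKO, Chpf2 was again first at 5.52 ± 0.196 and Chst11 last at 0.316 ± 0.122, while Chpf at 2.75 ± 0.216 lay above Ust at 2.12 ± 0.337 with no overlap. Between WT and DKO, the groups of Chpf and Chpf2 overlapped in RPKM. WT 1 was at 2.94 for Chpf, against 2.55 to 2.98 in DKO, and at 6.09 for Chpf2, against 5.40 to 5.74 in DKO. Csgalnact2, Chst15 and Chsy1 were lower in DKO without overlap on this scale.

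**Figure D3:**
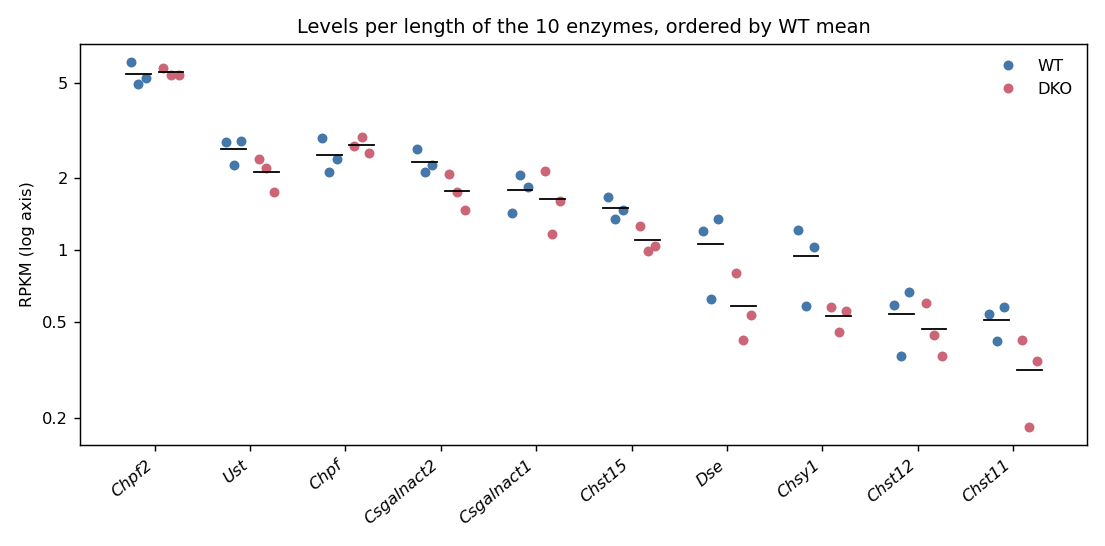
RPKM (log axis) of the 10 enzymes in each WT (blue) and DKO (red) library, ordered by WT mean, with a black line at each group mean (n = 3). Chpf2 lies near 5.4 RPKM in both groups, and Chst12 and Chst11 lie lowest.

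The relative level of enzymes for 4-O and 6-O sulfation was compared, since the balance of these positions distinguishes kinds of CS. The log2 ratio of the summed counts per kb of Chst11, Chst12 and Chst13 to those of Chst3 and Chst7 was 1.07, 0.954 and 1.54 in WT and 1.63, 0.858 and 0.248 in DKO. The DKO libraries spanned the whole WT range, and the difference of -0.27 was within that spread (two-sided exact permutation p = 0.6, where 0.1 is the smallest possible). Without DKO 5 its sign changed, to 0.060, and without WT 5 it was -0.097. The summed counts per kb of CS-starting Csgalnact1 and Csgalnact2 were 0.530, 0.597 and 0.545 times those of HS-starting Extl3 in WT, against 0.581, 0.498 and 0.491 times in DKO. These groups overlapped as well, with a difference of -0.09 between mean log2 ratios (two-sided exact permutation p = 0.4).

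Around the 10 enzymes, 51 further genes of the route were listed, of which 45 had enough counts to test. DESeq2 called 3 of them, or 6.67% against 2.90% of all rows, all lower in DKO and all core proteins. An unadjusted DESeq2 p under 0.05 was reached by 12 of the 45. That threshold was passed by 12.2% of all rows and by 15.3% of rows with a mean of at least 50. The other 5 lists had 0 genes called by DESeq2, edgeR or limma-voom. Their numbers with an unadjusted DESeq2 p under 0.05 were 2 of 5 other CS/DS enzymes, 2 of 7 linker enzymes and 0 of 5 HS chain enzymes. The numbers were 2 of 9 genes of sulfate and sugar supply and 0 of 9 degradation enzymes, while the core proteins had 6 of 10.

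Other CS/DS enzymes had a median log2 fold change of -0.40. Dsel, a second epimerase, was at 286, 250 and 238 normalized counts in WT, against 215, 205 and 164 in DKO. These values did not overlap, and the log2 fold change was -0.40 with an SE of 0.18 (DESeq2, adjusted p = 0.236). Of the alternatives, only total counts as size factors gave a call (-0.64, DESeq2 adjusted p = 0.0246). Chst14, the 4-O-sulfotransferase of DS, was the highest of this list at 0.22 (SE 0.28). Chsy3, another chondroitin synthase, had 9 counts in the 6 libraries and was not tested.

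For the linker, B3gat3, which adds its glucuronic acid, was at 345, 340 and 338 normalized counts in WT, against 391, 490 and 387 in DKO, without overlap. Its log2 fold change was 0.31 with an SE of 0.15 (DESeq2, adjusted p = 0.298). Fam20b, the kinase that phosphorylates the linker xylose, had 1806, 2016 and 1891 against 2252, 2325 and 2207 normalized counts, again without overlap. Its log2 fold change was 0.25 with an SE of 0.09 (DESeq2, adjusted p = 0.115), and it is named after its values were seen. With total counts as size factors, B3gat3 was at 0.069 and Fam20b at 0.015, with the median of all rows at -0.23. Xylt2, a xylosyltransferase that begins the linker, was nearest to 0 among the genes of this list with a mean of at least 50, at 0.01. The lowest value of the whole linker list was -0.77, for a gene under that mean. Among HS chain enzymes with such a mean, values ran from -0.14 for Ext1 to 0.18 for Ext2, the subunits of the HS polymerase. Slc35b2, a Golgi carrier of the sulfate donor, led its list at 0.32 with an SE of 0.12 (DESeq2, adjusted p = 0.148). With total counts as size factors Slc35b2 was at 0.078. Ugdh, which makes UDP-glucuronic acid, was lowest among the genes of that list with such a mean, at -0.22 (SE 0.17). The lowest value of the whole list was -0.88, for a gene under that mean. Galns, a lysosomal sulfatase, was the highest of the degradation enzymes with such a mean, at 0.23 (SE 0.20). Spam1 and Hyal4, both of the hyaluronidase family, had 0 counts in every library. That allows up to 3 counts or 0.127 CPM in the shallowest, counting error only.

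**Figure D4:**
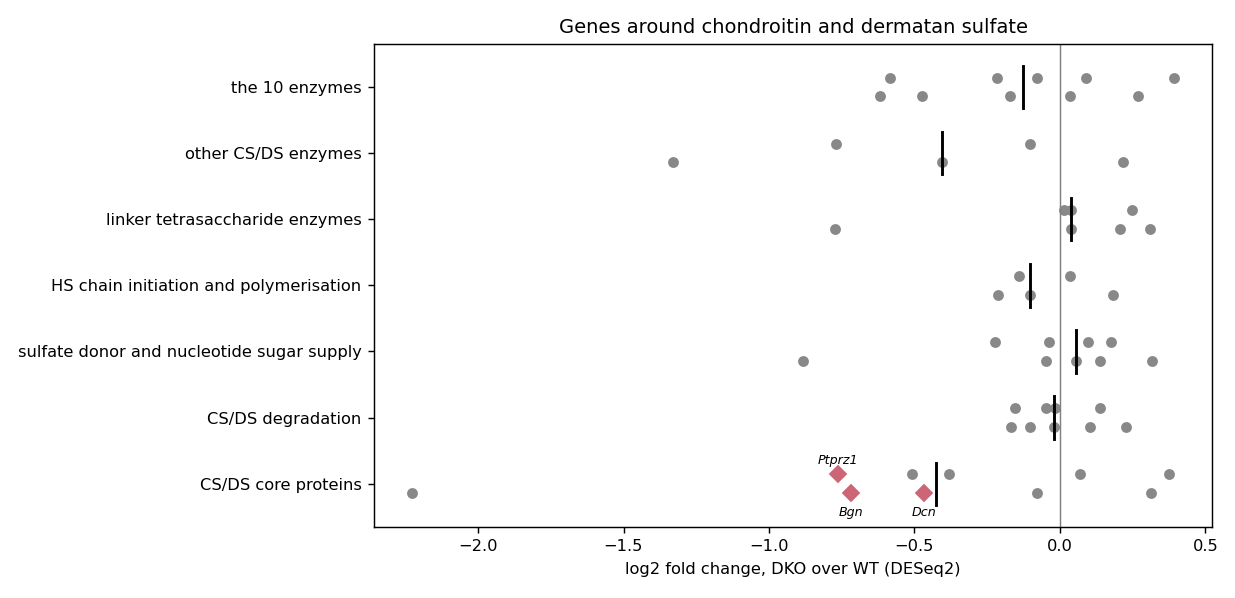
DESeq2 log2 fold change of DKO over WT (horizontal axis) of each tested gene in the 7 lists, with red diamonds for the genes with an adjusted p under 0.05 and a black bar at each list's median. Only 3 core proteins, Ptprz1, Bgn and Dcn, are called.

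The core proteins carry the chains that the enzymes build. Decorin, encoded by Dcn, is a small CS/DS proteoglycan of collagen fibrils. It was at 4232, 4075 and 4730 normalized counts in WT, against 3835, 2978 and 2610 in DKO. All DKO values lay below all WT values, and the log2 fold change was -0.47 with an SE of 0.14 (DESeq2, adjusted p = 0.0305). Biglycan, encoded by Bgn and related to decorin, was at 942, 769 and 1351 in WT, against 742, 576 and 541 in DKO. These groups also did not overlap, and the log2 fold change was -0.72 with an SE of 0.20 (DESeq2, adjusted p = 0.0141). WT 5 was its highest library. Ptprz1, a receptor phosphatase that can carry CS, was at 196, 220 and 247 in WT, against 149, 134 and 107 in DKO. It likewise did not overlap, and its log2 fold change was -0.76 with an SE of 0.20 (DESeq2, adjusted p = 0.00885).

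Each of these calls was lost in some fits with 1 library left out. Over all rows, DESeq2 called 539 with every library, but 151 without WT 1, 149 without WT 5, 170 without DKO 4 and 166 without DKO 5. It called 817 without WT 4 and 740 without DKO 1. Some calls were lost although the estimate did not shrink, as for Dcn without WT 1 (-0.49) or WT 4 (-0.51), Bgn without WT 1 (-0.77) and Ptprz1 without DKO 4 (-0.78). Without WT 5, the log2 fold change was -0.40 for Dcn, -0.46 for Bgn and -0.67 for Ptprz1, with DESeq2 adjusted p of 0.367, 0.322 and 0.182, so the estimate of Bgn moved most. Leaving out DKO 4 or DKO 5 also removed all 3 calls, leaving out WT 1 removed those of Dcn and Bgn, and leaving out WT 4 removed that of Dcn, while edgeR and limma-voom gave none. With any 1 library left out, the log2 fold change ran from -0.64 to -0.35 for Dcn, from -0.89 to -0.46 for Bgn and from -0.87 to -0.64 for Ptprz1. Dcn and Bgn are also expressed by fibroblasts, whose markers summed to 7321 to 11661 in WT and 5600 to 8469 in DKO. All 8 of these markers had negative log2 fold changes, with a median of -0.56, and 6 of the 8 had an unadjusted DESeq2 p under 0.05. Their part in these values was not tested.

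Of the 13 core proteins listed, 10 were tested and 6 had groups without overlap, 1 higher and 5 lower in DKO. Over all rows tested, groups did not overlap in 20.3%. Besides the genes called, Vcan was at 252, 178 and 225 normalized counts in WT, against 162, 137 and 161 in DKO (log2 fold change -0.51 with an SE of 0.20, adjusted p = 0.144 by DESeq2). Vcan encodes versican, a large matrix proteoglycan, is named after its values were seen, and passed the test without WT 4 (-0.63, DESeq2 adjusted p = 0.0396) but not without WT 1 (-0.39, DESeq2 adjusted p = 0.657). Cd44, a hyaluronan receptor with a CS-bearing form, lay on the other side, with 3310, 5193 and 4297 in WT and 5376, 5542 and 5685 in DKO (log2 fold change 0.38 with an SE of 0.14, adjusted p = 0.136 by DESeq2). Without WT 4 the log2 fold change of Cd44 was 0.54 and it passed (DESeq2 adjusted p = 0.00309), whereas without WT 1 it was 0.22 (DESeq2 adjusted p = 0.618). Epyc, another small proteoglycan named after its values were seen, had few counts, at 10.9, 9.78 and 26.9 normalized counts in WT and 5.69, 3.14 and 1.15 in DKO (log2 fold change -2.23 with an SE of 0.84, adjusted p = 0.130 by DESeq2). Acan had 0 counts in every library, and Ncan and Bcan had 4 and 7 counts in all, so these genes were not tested.

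**Figure D5:**
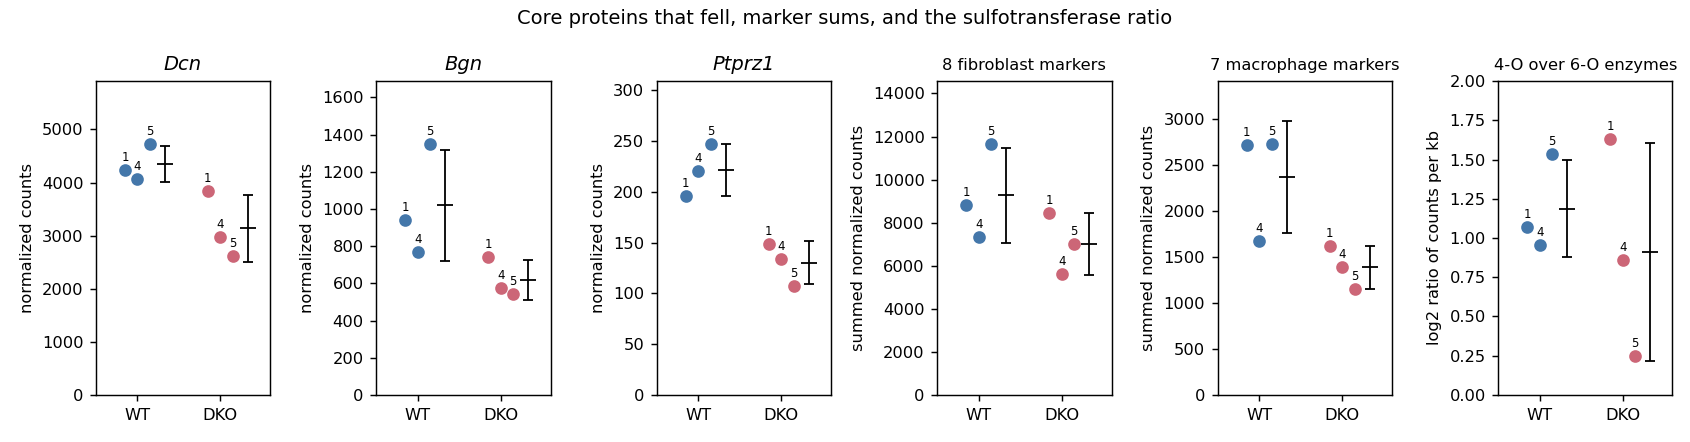
Normalized counts of the core protein genes called lower, summed normalized counts of 8 fibroblast and 7 macrophage markers, and the log2 ratio of 4-O to 6-O sulfotransferase counts per kb, in each WT (blue) and DKO (red) library with the mean and SD (n = 3) in black and the library number above each point. Dcn, Bgn and Ptprz1 do not overlap between groups, and the fibroblast sums and the ratios do, although all 8 fibroblast markers had negative log2 fold changes.

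The rows whose normalized counts followed Chpf2 most closely over the 6 libraries were found by Pearson correlation of log2 values among 11489 rows with a mean of at least 50. They were Hist1h4k (r = 0.990), Liph (r = 0.990), Creg1 (r = 0.989), D17Wsu104e (r = 0.985) and Tmem134 (r = 0.985). With 6 libraries and so many rows, high values arise readily, and these are given as a description only. None of the 5 passed the DESeq2 test between groups, with log2 fold changes from 0.25 to 0.70.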

How the data were processed

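The authors made unstranded Nextera XT libraries, sequenced them on a HiSeq2500 and deposited raw read counts per gene symbol. The submitters' processing notes name STAR 2.5.2a, DESeq2, edgeR and limma and the builds GRCm38, mm10 and GRCh38; the counting tool and annotation are not given in the sources used here. The unfiltered counts were tested here as deposited. The authors' filtered counts served as an alternative, and their table of TMM-scaled CPM was not used.

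Rows with at least 10 counts over the 6 libraries were fitted with DESeq2 1.42.0 in R 4.3.3, the tool that the study's methods name. The study also asked for a 2-fold change, which was not required here, and the count filter is not from the study. The fit used median-of-ratios size factors (0.867 to 1.12), two-sided Wald test and Benjamini-Hochberg adjustment over all rows, with a threshold of 0.05. Normalized counts are counts divided by the size factor. Fold changes are unshrunken, of DKO over WT. The alternatives were edgeR 4.0.16 (quasi-likelihood), limma-voom 3.58.1, other size factors, filters and thresholds on low counts, the replicate block, and each library left out. The fit was tested on simulated data. Exon lengths and gene coordinates came from GENCODE M21 (GRCm38), and RPKM were computed from the counts. Ratios were compared by exact permutation.

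The enzymes and the gene lists were chosen with earlier results of these data known. Besides the 10 enzymes and the targeted genes, the text names, for each list, the genes called, those with the largest and smallest log2 fold change where the mean normalized count reached 50, and those too low to test, plus the 5 rows most like the enzyme with the smallest p. A gene that this rule would name is not reported here. The list entries Bpnt2, Jchain and Adgre1 were matched by a RefSeq synonym. Libraries of 1 group differed by more than sampling noise (chi-square per degree of freedom from 16.8 to 43.4). Intervals and floors cover counting error only, except the 95% intervals of fold changes, which come from the fit.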

Additional observations from a re-analysis of the deposited data

How the results depend on the processing

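The count of 0 enzymes called held under all 16 alternatives. DESeq2 called 539 rows, edgeR 10, limma-voom 7, total counts as size factors 1469 and the replicate block 343, and leaving out 1 library gave 149 to 817. Of the other genes of the route, 3 were called by DESeq2, 0 by edgeR, 0 by limma-voom, 7 with total counts, 2 with the block and 0 to 4 with 1 library left out. The ratio of 4-O to 6-O sulfotransferases turned from -0.27 to 0.17 as a mean of log2 over genes, and ranged from -0.63 to 0.060 with 1 library left out, while that of CS to HS initiation stayed between -0.17 and -0.04. With total counts, which lowered the median of all rows to -0.23, the log2 fold change turned negative, among the genes the text names, for Csgalnact1 (-0.12), Chst12 (-0.20), Chst14 (-0.021), Xylt2 (-0.22), Ext2 (-0.054), Extl3 (-0.20) and Galns (-0.0016). With 1 library left out, the log2 fold change spanned 0 for Csgalnact1 (-0.080 to 0.26, negative without WT 1 or DKO 1), Chst12 (-0.15 to 0.22, negative without WT 4 or DKO 1), Ust (-0.16 to 0.026, positive without DKO 5), Chst7 (-0.44 to 0.081, positive without WT 1, DKO 1 or DKO 4), Xylt2 (-0.081 to 0.082, negative without WT 5 or DKO 5) and Hs3st3b1 (-0.23 to 0.19, positive without WT 5 or DKO 4). Among the 10 enzymes, the upper 95% limit passed a doubling for Chst12 alone, at 1.12 with the block, 1.15 without WT 5 and 1.06 without DKO 5 on the log2 scale. The causes were not tested. Libraries that share a number correlated at -0.13, -0.02 and -0.26 in their deviations from the group means, and 0 libraries correlated best with their own number. These deviations sum to 0 within each group of 3, so the correlations cannot decide whether a number marks a shared origin, which was not tested. The block removed the call of Ptprz1 (DESeq2 adjusted p = 0.109). The alternatives for the ratio of Chpf and Chpf2 to Chsy1 were chosen after seeing the data. Of the 10 enzymes, Chst12 had the fewest counts, 192 over the 6 libraries, and the largest SE.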
